A study of Mus musculus with 3 samples.

Results

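The cells described here were 2173 neutrophils that carried transcripts of both Cxcr2 and Mmp9, out of 6130 neutrophils and 12472 live CD45+ cells kept from 4T1 mammary tumors. A cell was kept with at least 1500 UMIs (unique molecular identifiers, each standing for 1 captured transcript), at least 300 genes and at most 20% mitochondrial UMIs. It was counted as a neutrophil when at least 3 of 8 neutrophil genes (Csf3r, Cxcr2, Hdc, Il1r2, Retnlg, G0s2, Trem1 and Mmp9) and at most 1 of 6 genes of other leukocytes (Fn1, Ccr2, C1qa, C1qb, Cd3e and Nkg7) were detected. Members of the population held at least 1 UMI of Cxcr2 and of Mmp9, none of F3, and fewer than 3 of 7 interferon-induced genes (Ifit1, Ifit2, Ifit3, Ifit3b, Rsad2, Cmpk2 and Usp18). The members were thus chosen by the measured UMIs of 22 genes, so the levels of these genes are description and were never tested. The working label also calls the cells recently recruited. Transcripts do not time the arrival of a cell, and that part of the label was not tested.

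The study asked how blocking the stress kinase p38 changed the leukocytes inside the tumor. Female BALB/c mice aged 6 to 8 weeks received 200000 4T1 cells, a mouse mammary carcinoma line, in the fourth mammary fat pad, and tumors were taken at day 14. In the vehicle group, mice bearing p38α wild-type 4T1-luc cells received DPBS. In the p38i group, mice bearing the same cells received the p38 inhibitor LY2228820 (ralimetinib) by daily gavage at 30 mg/kg for 10 days from day 4. In the p38KO group, the implanted tumor cells had p38α (gene Mapk14) inactivated by CRISPR-Cas9 and the labels give no drug. These knockout cells were 1 clone, H9, so the clone and the loss of p38α cannot be told apart, and the leukocytes of the host kept their own Mapk14. Each group was 1 sequencing library made from the pooled tumors of 3 mice, sorted for live (7AAD-negative) CD45+ cells. No difference between the groups therefore has a replicate check.

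Neutrophils are short-lived granulocytes that leave the bone marrow and blood for sites of injury and tumors. CXCR2 is the receptor through which they follow chemokines such as CXCL1 and CXCL2, and it is known to be lost from the surface as they age or become activated. They are built with granules loaded in sequence during maturation, and MMP9, also called gelatinase B, is stored in the tertiary (gelatinase) granules that are released most readily. FPR1 and FPR2 sense formylated peptides of bacteria and mitochondria, and Retnlg encodes a resistin-like protein of mature blood neutrophils.

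Values are given in the order vehicle, p38i and p38KO. The population held 726, 881 and 566 cells out of 2028, 2447 and 1655 neutrophils. Its cells summed to 2262860, 2723595 and 1405664 UMIs, against library totals of 21675352, 25996832 and 25997636 UMIs over all barcodes. Median depth was 2599, 2437 and 2182 UMIs per member and 2369, 2080 and 2111 UMIs per other neutrophil. Members were somewhat deeper, so shares are also given at equal depth. Levels are counts per 1000000 UMIs (CPM) over the summed UMIs of the named cells in 1 library. They come from 3′ ends and were compared within a gene only.

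The members carried the transcripts of neutrophils, in part because the rule asks for them. S100a8 and S100a9, the calprotectin subunits, reached 90150.1, 100967 and 65344 CPM and 129451, 139074 and 101101 CPM. Csf3r, the G-CSF receptor and one of the genes the rule reads, was at 1602, 1193 and 2122 CPM in members and 966, 834 and 1297 CPM in the other neutrophils. The primary granule genes Mpo, Elane and Ctsg, made at the promyelocyte stage, had 0 UMIs in the members of all 3 libraries. A count of 0 in the p38KO members, the smallest of these sums, allows up to 2.13 CPM (3 UMIs). The rule also limits genes of other leukocytes and reads 2 of the 6 macrophage, 2 of the 5 monocyte, 1 of the 4 T cell and 1 of the 4 NK cell markers, so their sums are partly set by it and test nothing. Summed macrophage markers (6 of 6 detected) came to 171, 187 and 494 CPM in members and 260, 278 and 490 CPM in other neutrophils, with Apoe the most abundant. Summed monocyte markers came to 59.2, 60.9 and 84.7 CPM, led by Ly6c2, and T cell markers to 53.0, 63.2 and 29.2 CPM in members and 31.5, 36.7 and 30.7 CPM in other neutrophils, led by Cd3d. The T cell sum was higher in members in vehicle and p38i, with counting intervals apart, and not in p38KO. The eosinophil genes Epx and Prg2 were at 0. The 4 eosinophil markers summed to 23.9, 15.1 and 30.6 CPM in members and 17.2, 11.8 and 20.9 CPM in others, led by Siglecf. Mast cell and basophil markers summed to 0.44, 0 and 32.0 CPM in members, where the 4 detected in p38KO were led by Cpa3 from at most 10 cells and the 0 in p38i allows up to 1.10 CPM, and to 2.96, 35.8 and 120 CPM in other neutrophils. B cell, dendritic cell, NK cell, platelet, red cell and epithelial marker sums were each at most 19.9 CPM in members of any library.

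Free transcripts in droplets can place a UMI in a cell that does not make the gene, so T cells, which should lack both genes, served as a background. At full depth 2.25%, 2.89% and 2.38% of T cells (n = 578, 693 and 588, median 5465, 4101 and 5053 UMIs) held both Cxcr2 and Mmp9, against 45.5%, 44.5% and 45.9% of neutrophils at medians of 2466.5, 2175 and 2138 UMIs. After every cell was thinned to 1500 UMIs, the shares were 0.346%, 0.722% and 0.680% of T cells and 31.6%, 30.3% and 35.2% of neutrophils. The rule that calls neutrophils counts both genes, so the neutrophil shares are partly set by it. The T cell shares describe the background, and their distance from the neutrophil shares tests nothing.

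Cxcr2 (ENSMUSG00000026180, chr1:74153989-74161246, plus strand on GRCm38) was at 1504, 1322 and 1894 CPM in members and 739, 693 and 1054 CPM in other neutrophils. Mmp9 (ENSMUSG00000017737, chr2:164940780-164955850, plus strand) was at 966, 938 and 1154 CPM in members against 272, 254 and 247 CPM. The median member held 4, 3 and 4 Cxcr2 UMIs and 2 Mmp9 UMIs in every library, so the rule worked close to its threshold for Mmp9. Members with exactly 1 UMI of each numbered 42, 65 and 30, which is 5.79%, 7.38% and 5.30% of them. These threshold cells differed from members with 3 or more UMIs of both genes: in the vehicle library Retnlg was at 769.9 CPM in the 42 cells and 5718 CPM in the 250 deeper ones, and the chemokine gene Cxcl2 at 11477 and 5025 CPM. Just outside the threshold, the 95 vehicle neutrophils with 1 Cxcr2 UMI and no Mmp9 UMI held 949 CPM of Retnlg and 14483 CPM of Cxcl2. In the p38i and p38KO libraries the threshold cells likewise held 1195 and 975 CPM of Retnlg, against 10543 and 3844 CPM in the members with 3 or more UMIs of both genes. Cells with 1 Cxcr2 UMI and no Mmp9 UMI held 1346 and 411 CPM of Retnlg there. For Cxcl2, the threshold cells of p38i and p38KO held 4604 and 8835 CPM and the cells just outside 8284 and 15335 CPM. Ccl3 stood at 1571, 403 and 568 CPM in the threshold cells of the 3 libraries and at 1385, 1373 and 1443 CPM just outside. On the other edge, the 61, 92 and 27 cells with 1 Mmp9 UMI and no Cxcr2 UMI held 2713, 1281 and 1205 CPM of Ccl3 and 1229, 3458 and 2295 CPM of Retnlg. Ccl3 was thus higher just outside than just inside on both edges in p38i and p38KO, and in vehicle only on the edge without Cxcr2.

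Of the marker genes the rule did not read, Fpr1 was higher in members and Fpr2 was not called. The markers were chosen with earlier results of these data known, so the Fpr1 call is not independent evidence. Fpr1 was at 229, 210.0 and 213 CPM in members and 139.6, 135 and 163 CPM in other neutrophils, higher in each library. The log2 fold change was 0.53 ± 0.11 (SE) with an adjusted p of 0.0056 by edgeR's quasi-likelihood test, fitted to summed counts of 2 subsets in 3 libraries with the library as a block. Fpr2 was at 375, 404 and 381 CPM in members against 324, 336 and 397 CPM, higher in members in the first 2 libraries and lower in p38KO (log2 0.08 ± 0.11, adjusted p 0.61). Retnlg, which the rule counts, was at 3522, 6431 and 2176 CPM in members and 1954, 3145 and 713 CPM in other neutrophils.

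The population formed 35.8%, 36.0% and 34.2% of neutrophils, with exact binomial 95% intervals of 33.7 to 37.9, 34.1 to 37.9 and 31.9 to 36.5. The 3 intervals overlapped. After thinning to 1500 UMIs per cell the shares were 28.7%, 27.9% and 29.6%, and asking for 2 UMIs of both genes gave 21.3%, 19.5% and 19.7%. Among all CD45+ cells kept, the members were 19.0%, 18.4% and 14.7%, with p38KO below the intervals of the other two (17.8 to 20.3 and 17.3 to 19.5, against 13.6 to 15.8). At 1500 UMIs per cell these were 14.8%, 13.9% and 12.7%, and the p38KO interval of 11.7 to 13.8 then overlapped both others (13.7 to 16.0 and 12.9 to 14.9). Neutrophils as a whole were 2028 of 3820, 2447 of 4793 and 1655 of 3859 kept cells. Intervals cover the counting of cells only, not the variation between mice.

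**Figure D1:**
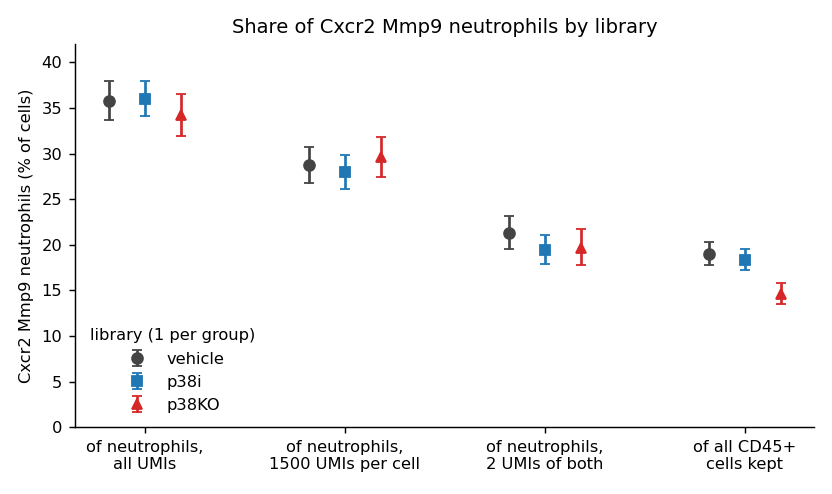
Share of cells that met the rule for Cxcr2 Mmp9 neutrophils in each library (y axis, percent), under 4 definitions: of neutrophils at full depth, of neutrophils thinned to 1500 UMIs, of neutrophils with 2 UMIs of both genes, and of all CD45+ cells kept; points are libraries and bars are exact 95% binomial intervals. The 3 libraries sit at 35.8%, 36.0% and 34.2% of neutrophils with overlapping intervals, and p38KO is lowest at 14.7% of all CD45+ cells.

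The other 3957 neutrophils fell into 5 subsets by the same genes. Interferon-positive cells numbered 387, 175 and 444, F3-positive cells 231, 421 and 174, Ccl3-positive Cxcr2-negative cells 179, 225 and 92, Cxcr2-positive cells without Mmp9 380, 535 and 305, and the remaining neutrophils 125, 210 and 74. F3 encodes tissue factor, and Ccl3 a chemokine made by activated neutrophils. Because the rule keeps interferon-positive and F3-positive cells out, lower interferon genes and lower genes that go with F3 in members partly follow from the rule. The Ccl3-positive Cxcr2-negative subset holds none of those cells, and it was compared separately.

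Against all other neutrophils, 1179 of 7367 tested genes were higher in members and 1351 were lower, which is 16.0% and 18.3% of those tested (edgeR, adjusted p under 0.05). Of the called genes, 1176 higher and 1319 lower had the same direction in all 3 libraries, and 237 and 424 differed at least 2-fold. Without the vehicle library 680 were higher and 772 lower, and DESeq2 called 543 and 798. Against the Ccl3-positive Cxcr2-negative cells, 973 of 5509 genes (17.7%) were higher and 1124 (20.4%) lower, with 659 lower when the vehicle library was left out. Against the F3-positive cells, 873 (15.8%) were higher and 973 (17.7%) lower, with 520 and 522 higher when vehicle or p38i was left out. The 3 contrasts share the member sums. The cells were sorted by transcripts, so a called gene is one that goes with the rule's genes within these libraries. The 3 libraries differ in treatment and stand as the only replicates of the sorted subsets.

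Counts for gene lists are read against these shares, and stand in place of a test of the list. The plot of list counts shows 21 lists beside the shares of all genes. Chemokine, tumor-retained, hypoxia and interferon lists lay on the lower side, and S100, secondary granule and reactive oxygen lists on the higher side.

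**Figure D2:**
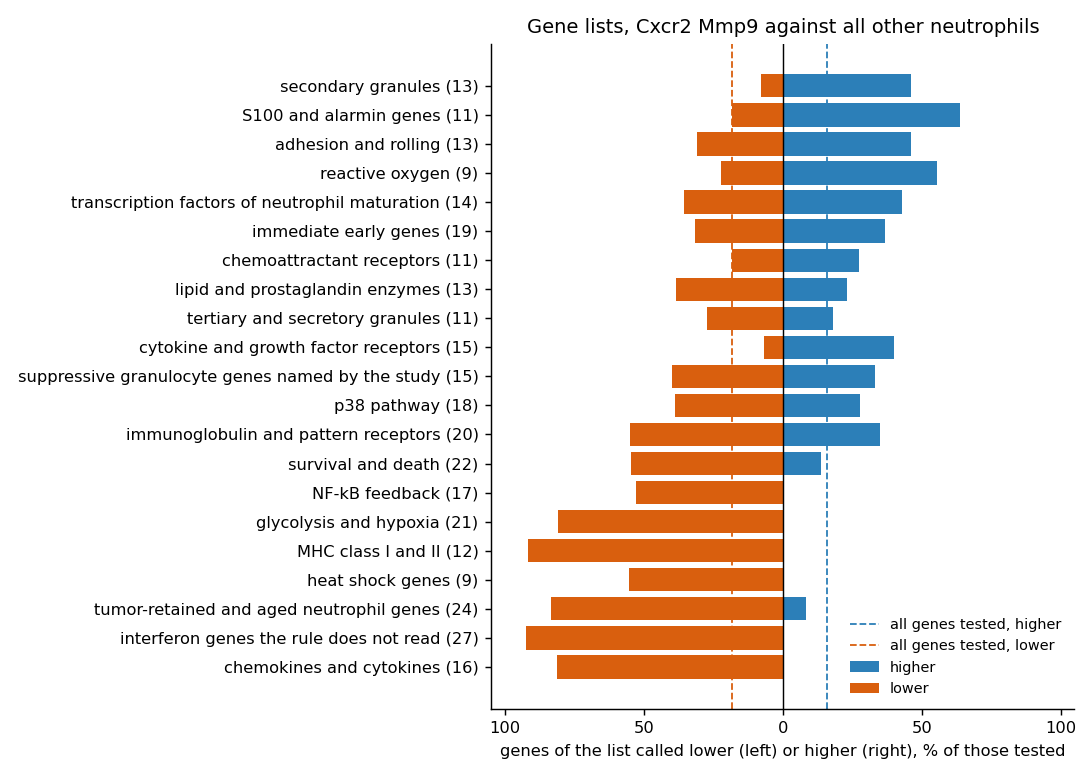
Percent of the tested genes of each list that edgeR called lower (left) or higher (right) in members than in all other neutrophils (x axis), for 21 lists; dashed lines mark all tested genes at 18.3% and 16.0%. No gene of the chemokine, glycolysis and hypoxia, or interferon lists was called higher, while 13 of 16, 17 of 21 and 25 of 27 were called lower.

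Among called genes with at least 100 CPM in the higher subset of every library and 1 direction throughout, those higher in members were led by Mtus1, which encodes a microtubule-associated protein, at 169, 178 and 161 CPM in members and 48.1, 62.4 and 54.2 CPM in other neutrophils (log2 1.58 ± 0.10, edgeR adjusted p 4.6e-05). Cpd, a carboxypeptidase of the secretory pathway, was at 134, 135 and 180.0 CPM in members against 40.6, 63.8 and 60.0 CPM. Hp, haptoglobin, which binds free hemoglobin and is stored in neutrophil granules, was at 2058, 1659 and 2213 CPM in members against 676, 689 and 807 CPM. For all 3 genes the lowest member value lay above the highest value of the other neutrophils. The rest of the 10 were Ifitm6, Mmp8, R3hdm4, Hacd4, Pglyrp1, Nfam1 and Gpx1, with log2 differences of 1.38, 1.33, 1.32, 1.26, 1.24, 1.23 and 1.20. Pglyrp1 encodes a bactericidal peptidoglycan-binding protein of granules, Nfam1 an activating receptor with an ITAM motif, and Gpx1 the glutathione peroxidase that removes hydrogen peroxide. Pglyrp1 was at 976, 1079 and 812 CPM in members and 372, 500.1 and 309 CPM in the others. With members chosen at 1500 UMIs per cell, the 10 differences were smaller, from 0.70 for Ifitm6 to 1.10 for Mtus1, and all were still called. The T cell marker Cd3d was also higher in members (log2 0.85 ± 0.20, adjusted p 0.0099), and the part of T cell transcripts in the genes higher in members was not tested.

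Under the same minimum of 100 CPM, the genes lower in members were led by Ccl3, a chemokine, at 517, 395 and 449 CPM in members against 2382, 1291 and 2002 CPM (log2 -2.08 ± 0.13, edgeR adjusted p 4.5e-05). Cd274, which encodes the T cell inhibitory ligand PD-L1, was at 269, 323 and 371 CPM in members against 1303, 1007 and 1576 CPM (log2 -2.06 ± 0.14, adjusted p 4.6e-05). Member values of both genes lay below those of the other neutrophils with no overlap. The rest of these 10 were Herc6, Hilpda, Ifrd1, Cxcl10, Tgif1, Ciart, Ccdc126 and Tnfrsf26, with log2 differences of -1.98, -2.03, -1.95, -1.91, -1.90, -1.84, -1.72 and -1.67. Herc6 and Cxcl10 are interferon-induced, and Hilpda is a hypoxia-induced protein of lipid droplets. Without a library term the Cxcl10 difference was -1.98 with an adjusted p of 0.063. Its 10 highest members held 84.3%, 72.9% and 76.4% of its member UMIs.

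**Figure D3:**
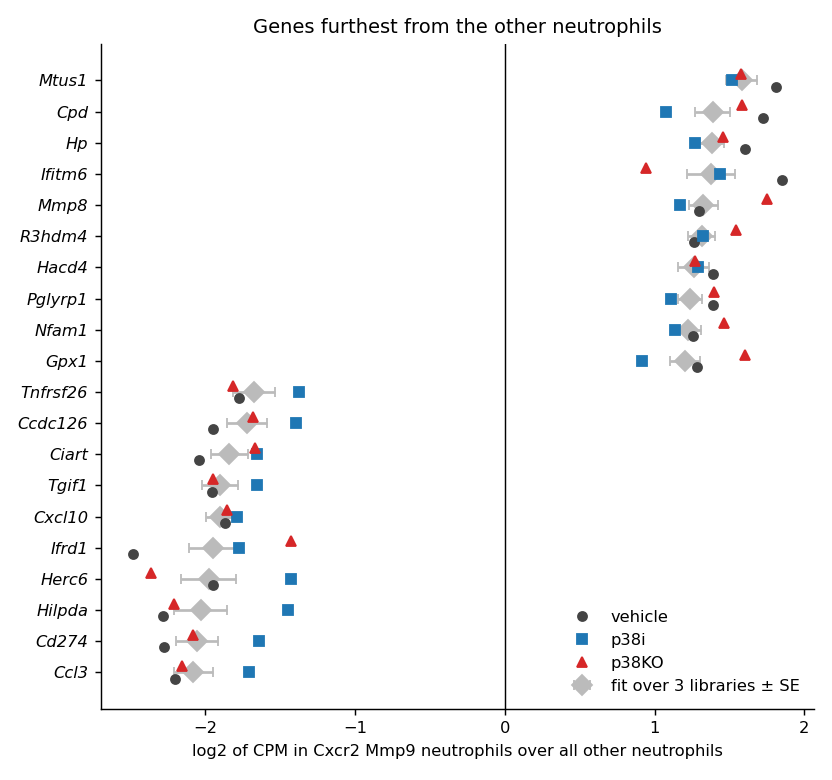
Log2 ratio of CPM in members over all other neutrophils (x axis) for the 20 genes furthest from the other neutrophils by the naming rule, 10 in each direction; small points are the 3 libraries, large points with bars the edgeR estimate and its SE. Mtus1 lies furthest right at 1.58 and Ccl3 furthest left at -2.08, and all libraries of a gene lie on the same side of 0.

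Among chemoattractant receptors, 3 of 11 tested genes were higher, 2 were lower and 6 did not pass (median log2 0.08, over all genes 0.0032). Fpr1 was higher, as given above. Ltb4r1, the leukotriene B4 receptor, was at 437, 393 and 323 CPM in members against 309, 341 and 249 CPM (log2 0.30 ± 0.09, edgeR adjusted p 0.023). C5ar2, the second C5a receptor, was also higher (log2 0.93 ± 0.20, adjusted p 0.0057), while C5ar1 stood at 653, 557 and 724 CPM in members against 550.5, 491 and 586 CPM (adjusted p 0.097). Ccrl2, which binds chemerin without signalling, was lower in each library, at 853, 462 and 831 CPM in members against 2230.2, 1273 and 2814 CPM (log2 -1.59 ± 0.11, adjusted p 4.6e-05). Ptafr, the receptor of platelet-activating factor, was lower as well, at 322, 257 and 412 CPM in members against 627, 476 and 813 CPM. Cxcr4, which holds neutrophils in the marrow and marks aged cells in blood, was at 253, 135 and 399 CPM in members and 189, 168 and 344 CPM in the others, higher in vehicle and p38KO and lower in p38i (log2 0.05 ± 0.12, adjusted p 0.76).

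Cytokine receptor genes gave 6 of 15 higher and 1 lower (median 0.01). Il17ra, the IL-17 receptor, had the largest of these log2 differences, at 262, 209 and 317 CPM in members and 125, 144 and 173 CPM in others (log2 0.76 ± 0.10, edgeR adjusted p 0.00047), and all member values exceeded all others. Il6ra, Ifngr1, Csf1r, Il4ra and Ifngr2 were higher by 0.63, 0.52, 0.45, 0.41 and 0.41 on the log2 scale. Tnfrsf1b, TNF receptor 2, was the gene called lower (log2 -0.52 ± 0.08, adjusted p 0.0015).

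Adhesion genes split, with 6 of 13 higher and 4 lower (median 0.31). Selplg encodes PSGL-1, the selectin ligand on which neutrophils roll, and stood at 801, 618 and 924 CPM in members and 332, 282 and 404 CPM in others (log2 1.14 ± 0.08, edgeR adjusted p 4.6e-05). Against the Ccl3-positive cells, at 159.8, 138 and 146 CPM, the difference reached 2.33 ± 0.14. The integrin genes Itgal (LFA-1 alpha chain), Itgb2 (its beta chain) and Itga4 were higher by 0.75, 0.63 and 0.92 on the log2 scale, with adjusted p of 0.00036, 0.00056 and 0.00026. Itgal stood at 199, 156 and 289 CPM in members against 114, 107 and 136 CPM, with no overlap. Cd177, a surface protein of mature granulocytes, was at 113, 216 and 62.6 CPM in members against 38.2, 90.5 and 30.0 CPM and higher in each library (log2 1.28 ± 0.12). Icam1, Pecam1, Cd44 and Cd9 were lower, with Icam1 at 43.3, 42.6 and 104 CPM in members against 99.5, 91.2 and 221 CPM (log2 -1.19 ± 0.10).

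Secondary granule genes gave 6 of 13 higher and 1 lower (median 0.62), 10 of 13 higher and none lower against the Ccl3-positive cells (median 2.43), and 4 of 13 higher and none lower against the F3-positive cells (median 0.07). Mmp8 encodes neutrophil collagenase and stood at 353, 391 and 228 CPM in members, 144, 174 and 67.7 CPM in other neutrophils and 97.3, 189 and 40.3 CPM in Ccl3-positive cells (log2 1.33 ± 0.10 against the others, edgeR adjusted p 4.9e-05). Members were higher within each library. Lcn2, the iron-siderophore binding protein lipocalin 2, was at 2349, 2394 and 1478 CPM in members against 1203, 1665 and 832 CPM (log2 0.71 ± 0.08, adjusted p 0.00024). Anxa1, annexin A1, was at 1297, 1151 and 879 CPM in members against 475, 587 and 377 CPM (log2 1.15 ± 0.09). Cybb, the membrane subunit of the oxidase, was the gene called lower (log2 -0.34 ± 0.11, adjusted p 0.036). In the primary granule list, 2 genes could be tested and Prss57 was called higher, from 14, 15 and 6 UMIs. Tertiary and secretory granule genes gave 2 of 11 higher and 3 lower (median 0.06), with Mmp25 (a membrane-type protease) higher by 0.71 ± 0.12 and Fcgr3, an Fc receptor, lower (log2 -0.48 ± 0.08).

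The secondary granule genes Camp, Ltf and Ngp (cathelicidin, lactoferrin and neutrophilic granule protein) did not pass the test and were carried by very few cells. Camp was at 663, 229 and 5.69 CPM in members and 148, 575 and 1.46 CPM in others, Ltf at 334, 123 and 10.7 CPM in members against 99.8, 189 and 18.7 CPM, and Ngp at 940.0, 589 and 90.3 CPM in members against 247, 732 and 6.22 CPM. Members with at least 3 of Ngp, Camp, Ltf and Chil3 numbered 8, 14 and 1, and they held 97.6%, 88.1% and 54.7% of the UMIs of these 4 genes. They were deep cells, with medians of 14036.5, 9274 and 11905 UMIs. Among the other neutrophils such cells numbered 2, 9 and 0. Values of these genes therefore rest mostly on 23 members out of 2173. Without these cells of both subsets, 1191 genes were higher and 1358 lower, close to the counts with them.

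Mmp8 is one of the genes with a match to a C/EBP motif (TTGCNNAA, searched on both strands) in the 250 bases upstream of its start. C/EBP factors are known to drive granule genes. Of 11 secondary granule genes with a promoter entry, 5 held a match, against 10.8% of 27025 genes. The sequence, from RefSeq on GRCm38.p6 at chr9:7558179-7558428, plus strand, is shown because it holds a match, printed in capitals 19 bases before the start. A match describes letters and not binding.
Mmp8 promoter: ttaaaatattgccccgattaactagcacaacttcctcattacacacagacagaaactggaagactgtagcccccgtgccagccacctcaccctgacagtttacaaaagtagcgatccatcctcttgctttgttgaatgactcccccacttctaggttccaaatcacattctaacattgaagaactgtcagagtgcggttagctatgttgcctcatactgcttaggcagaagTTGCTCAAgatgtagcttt

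S100 and alarmin genes gave 7 of 11 higher and 2 lower (median 0.47). S100a6 stood at 5585, 6289 and 4274 CPM in members and 3094, 3676 and 2174 CPM in others (log2 0.81 ± 0.06, edgeR adjusted p 5.7e-05), Wfdc21 at 2960.0, 3752 and 1881 CPM in members against 1541, 2109.8 and 885 CPM (log2 0.89 ± 0.07), and S100a8 differed by 0.47 ± 0.07. S100a4 and S100a10 were lower (log2 -1.04 ± 0.22 and -1.42 ± 0.14), both at under 100 CPM in members and in other neutrophils of every library. Against the F3-positive cells the list gave 3 higher and 2 lower of 11. Genes of reactive oxygen handling gave 5 of 9 higher and 2 lower (median 0.30). Rac2, the small GTPase that activates the oxidase, was at 1058, 931 and 1149.6 CPM in members against 539, 529 and 516 CPM (log2 0.92 ± 0.08). Sod2, the mitochondrial superoxide dismutase and a gene induced by NF-kB, was lower at 122, 192 and 232 CPM in members against 378, 420.4 and 523 CPM (log2 -1.36 ± 0.12).

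Among transcription factors of neutrophil maturation, 6 of 14 were higher and 5 lower (median 0.10). Cebpd was at 623, 473 and 769 CPM in members and 288, 210.0 and 291 CPM in others (log2 1.17 ± 0.08, edgeR adjusted p 4.6e-05), and Spi1, which encodes PU.1, at 750.4, 667 and 936 CPM in members against 478, 417 and 506 CPM (log2 0.68 ± 0.08). Cebpb was lower by a smaller step, at 6193, 4392 and 5254 CPM in members against 7272, 5632 and 5845 CPM (log2 -0.31 ± 0.06). Lipid and prostaglandin genes gave 3 of 13 higher and 5 lower (median 0.07). Alox5, 5-lipoxygenase, and Alox5ap, its activating protein, were higher by 1.29 ± 0.12 and 0.76 ± 0.07, while Plin2, the lipid droplet coat protein, was lower (log2 -1.19 ± 0.18). Cell cycle genes were mostly too low to test, and 1 of 3 was called higher. Surface genes used to grade maturity also differed: Cd101 stood at 34.9, 23.9 and 55.5 CPM in members and 14.8, 12.0 and 17.6 CPM in others (log2 1.24 ± 0.16), and Ly6g at 172, 143 and 59.8 CPM in members against 76.4, 48.7 and 35.5 CPM (log2 1.18 ± 0.16).

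Chemokine and cytokine genes had the lowest median of the pathway lists, -1.36, with 13 of 16 lower and none higher. Cxcl2, a CXCR2 ligand that neutrophils make themselves, was at 6455, 3611 and 4503 CPM in members and 15752, 9609.9 and 13846 CPM in other neutrophils (log2 -1.50 ± 0.09, edgeR adjusted p 4.5e-05). It reached 18935, 11913 and 26286 CPM in the Ccl3-positive cells and 21504, 14242 and 22182 CPM in the F3-positive cells, and members were the lowest of all 6 subsets in each library. Ccl4 was at 711, 451 and 924 CPM in members against 2095, 1101 and 3219.8 CPM (log2 -1.61 ± 0.13), Cxcl3 at 628, 925 and 492 CPM in members against 2021, 1735 and 1822 CPM (log2 -1.55 ± 0.19), and Tnf at 11.5, 12.1 and 31.3 CPM in members against 31.5, 34.1 and 77.6 CPM (log2 -1.48 ± 0.14). Il1rn, the antagonist of the IL-1 receptor, and Il1a were lower too (log2 -1.24 ± 0.11 and -2.16 ± 0.17). Il1b did not follow them: it was at 13055, 8480.0 and 15654 CPM in members and 11925, 8800.2 and 13669.6 CPM in others, with values overlapping (log2 0.03 ± 0.06, adjusted p 0.72). Against the Ccl3-positive cells, 9 of 15 were lower and 1 higher, and against the F3-positive cells 12 of 15 were lower.

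Cxcl2 is among the chemokine genes with an NF-kB site in the upstream 250 bases, and NF-kB is a known activator of this gene. Such a site, searched on both strands, was present for 6 of 14 chemokine and cytokine genes with an entry and 8.23% of 27025 genes. The RefSeq sequence at chr5:90903649-90903898 (GRCm38.p6, plus strand) is shown with 2 overlapping matches in capitals, their first bases 97 and 96 upstream of the start.
Cxcl2 promoter: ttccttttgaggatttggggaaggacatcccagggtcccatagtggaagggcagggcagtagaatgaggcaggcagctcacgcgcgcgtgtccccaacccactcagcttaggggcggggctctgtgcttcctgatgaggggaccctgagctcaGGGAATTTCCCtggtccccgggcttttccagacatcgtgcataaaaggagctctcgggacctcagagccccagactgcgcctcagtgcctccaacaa

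Genes known from neutrophils held in tumors or aged in tissue were lower as well, 20 of 24 with 2 higher (median -1.01, and -1.37 and -0.98 against the Ccl3-positive and F3-positive cells). Hmox1, heme oxygenase 1, was at 224, 206 and 205 CPM in members and 715, 478 and 584 CPM in others (log2 -1.52 ± 0.12, edgeR adjusted p 5.8e-05). Vegfa, the angiogenic factor, was at 39.3, 58.4 and 32.7 CPM in members against 142, 109 and 89.7 CPM (log2 -1.41 ± 0.19). Values of these genes in members lay below those of the other neutrophils within each library. Siglecf, a marker of some tumor neutrophils and of eosinophils, went the other way at 18.1, 10.6 and 22.1 CPM in members against 10.8, 8.16 and 12.8 CPM (log2 0.58 ± 0.20, adjusted p 0.045), from low counts of 41, 29 and 31 UMIs.

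Glycolysis and hypoxia genes gave 17 of 21 lower and none higher (median -0.68, and -0.89 and -1.08 against the Ccl3-positive and F3-positive cells). Ldha, lactate dehydrogenase A, was at 837, 981 and 635 CPM in members and 1944, 1759 and 1436 CPM in others (log2 -1.14 ± 0.11, edgeR adjusted p 0.0001). Hk2, hexokinase 2, was at 342, 295 and 279.6 CPM in members against 936, 578 and 743 CPM (log2 -1.33 ± 0.13), and Bnip3, a mitophagy receptor induced by HIF-1, at 354, 377 and 273 CPM in members against 868, 722 and 580.1 CPM (log2 -1.16 ± 0.11). For Ldha, Hk2 and Bnip3 the highest member value lay below the lowest value of the others. Slc16a3, the lactate exporter, did not pass the test (log2 0.22 ± 0.08, adjusted p 0.055), and Slc2a1, the glucose transporter GLUT1, was lower (log2 -0.68 ± 0.08).

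The core of the hypoxia response element, ACGTG, searched on both strands, was present in the upstream 250 bases of 14 of 20 glycolysis and hypoxia genes with an entry, and of 18.5% of 27025 genes. Bnip3 is shown because it holds the core on both strands, read from overlapping letters in capitals, 108 and 107 bases upstream. The sequence is from RefSeq at chr7:138909507-138909756 on GRCm38.p6 and is written along the minus strand.
Bnip3 promoter: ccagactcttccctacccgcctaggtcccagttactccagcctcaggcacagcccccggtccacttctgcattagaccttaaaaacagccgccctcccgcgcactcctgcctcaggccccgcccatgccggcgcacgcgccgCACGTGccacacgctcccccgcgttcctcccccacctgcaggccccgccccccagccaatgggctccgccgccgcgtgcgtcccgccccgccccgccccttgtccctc

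Interferon genes that the rule did not read were lower, 25 of 27 with none higher (median -1.21), in a contrast from which the rule had moved interferon-positive cells to the other side. Isg15 was at 1004, 586 and 1275 CPM in members, 2961, 1297 and 3834 CPM in all other neutrophils, 5922, 3413 and 6275 CPM in interferon-positive cells and 1332, 912 and 2008 CPM in Ccl3-positive cells. The list gave 21 of 27 lower and none higher against the F3-positive cells (median -0.90). Against the Ccl3-positive cells, where neither side held interferon-positive cells, the list split into 5 higher and 6 lower of 27 (median -0.07). Isg15 still differed there by -0.59 ± 0.12 (edgeR adjusted p 0.00021), and Cxcl10 was higher in members than the 2.32, 18.9 and 181 CPM of those cells (log2 2.09 ± 0.58, adjusted p 0.006). MHC genes gave 11 of 12 lower against all others (median -0.69), 2 of 12 lower against the Ccl3-positive cells and 5 of 12 against the F3-positive cells. H2-K1, a class I heavy chain, was at 512, 511 and 682 CPM in members against 875, 733 and 1109.8 CPM (log2 -0.73 ± 0.10).

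NF-kB feedback genes gave 9 of 17 lower and none higher (median -0.48). Nfkbia, which encodes IkBα, was at 821, 579 and 894 CPM in members and 1551, 1333 and 2069 CPM in others (log2 -1.17 ± 0.09, edgeR adjusted p 5.7e-05), and Tnfaip3, the deubiquitinase A20, at 39.3, 31.6 and 88.2 CPM in members against 106, 67.7 and 149.7 CPM (log2 -1.15 ± 0.13). Members were lower in each library. Survival and death genes gave 12 of 22 lower and 3 higher (median -0.39), with the anti-apoptotic Mcl1 at 3272, 2737 and 3844 CPM in members against 4153, 3491 and 4577 CPM (log2 -0.38 ± 0.07) and Casp8 lower (log2 -1.21 ± 0.18). Txnip, the thioredoxin-binding protein, was higher at 466, 457 and 795 CPM in members against 236, 259 and 424 CPM (log2 0.84 ± 0.08). Heat shock genes gave 5 of 9 lower and none higher (median -0.69), and Hspa5, the chaperone BiP, was at 243, 243 and 302 CPM in members against 468, 448 and 546 CPM (log2 -0.95 ± 0.09).

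Immediate early genes split, with 7 of 19 higher and 6 lower (median 0.08). Fos was at 1084, 634 and 982 CPM in members and 637, 436 and 548 CPM in others (log2 0.66 ± 0.08, edgeR adjusted p 0.00025), whereas its partner Jun was at 413, 312 and 426 CPM in members against 862, 592 and 735 CPM (log2 -0.99 ± 0.09). Atf3 and Gadd45b, stress-induced genes, were lower (log2 -1.59 ± 0.13 and -1.41 ± 0.10). In the p38 pathway list, 5 of 18 were higher and 7 lower (median -0.13). Mapk14, p38α itself, was at 37.1, 42.6 and 60.5 CPM in members and 17.5, 21.4 and 16.5 CPM in others, above them in every library (log2 1.23 ± 0.16, adjusted p 0.00044). The host cells of the p38KO group kept this gene, and p38KO had the highest of the 3 values in members and the lowest in the other neutrophils. Mapk13, p38δ, was higher too (log2 0.72 ± 0.12), and Mapkapk2, the kinase below p38, was lower (log2 -0.66 ± 0.10).

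Immunoglobulin and pattern receptors gave 7 of 20 higher and 11 lower (median -0.26), with Clec4d, a C-type lectin receptor, at 1093, 1072 and 1220.1 CPM in members against 1496, 1467 and 1669.8 CPM (log2 -0.51 ± 0.08) and Tlr4, the endotoxin receptor, at 112, 107 and 134 CPM in members against 172, 138 and 187 CPM (log2 -0.54 ± 0.11). Genes that the study named for suppressive granulocytes gave 5 of 15 higher and 6 lower (median -0.09). The study named these genes while reporting its own data, these libraries included, so the count is not independent evidence. Wfdc21 was on the higher side and Ptgs2, cyclooxygenase 2, on the lower side, at 365, 266 and 445 CPM in members against 620.4, 362 and 519 CPM (log2 -0.54 ± 0.10, edgeR adjusted p 0.0034).

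The plot of subset levels places the members beside the 5 other subsets. Cxcr2-positive cells without Mmp9 lay between members and Ccl3-positive cells in several genes: Hp stood at 1053, 1036 and 1139 CPM there, Cxcl2 at 11228, 6359 and 11844 CPM and Cd274 at 542, 577 and 826 CPM. The Ccl3-positive cells held 241, 276 and 352 CPM of Hp and 1799, 1365 and 1671 CPM of Cd274, and the F3-positive cells 1431, 1260.0 and 1663 CPM of Cd274. In each library the members were highest in Hp, Lrg1, Selplg and Mmp8 and lowest in Cxcl2, Cd274 and Hilpda of all 6 subsets.

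**Figure D4:**
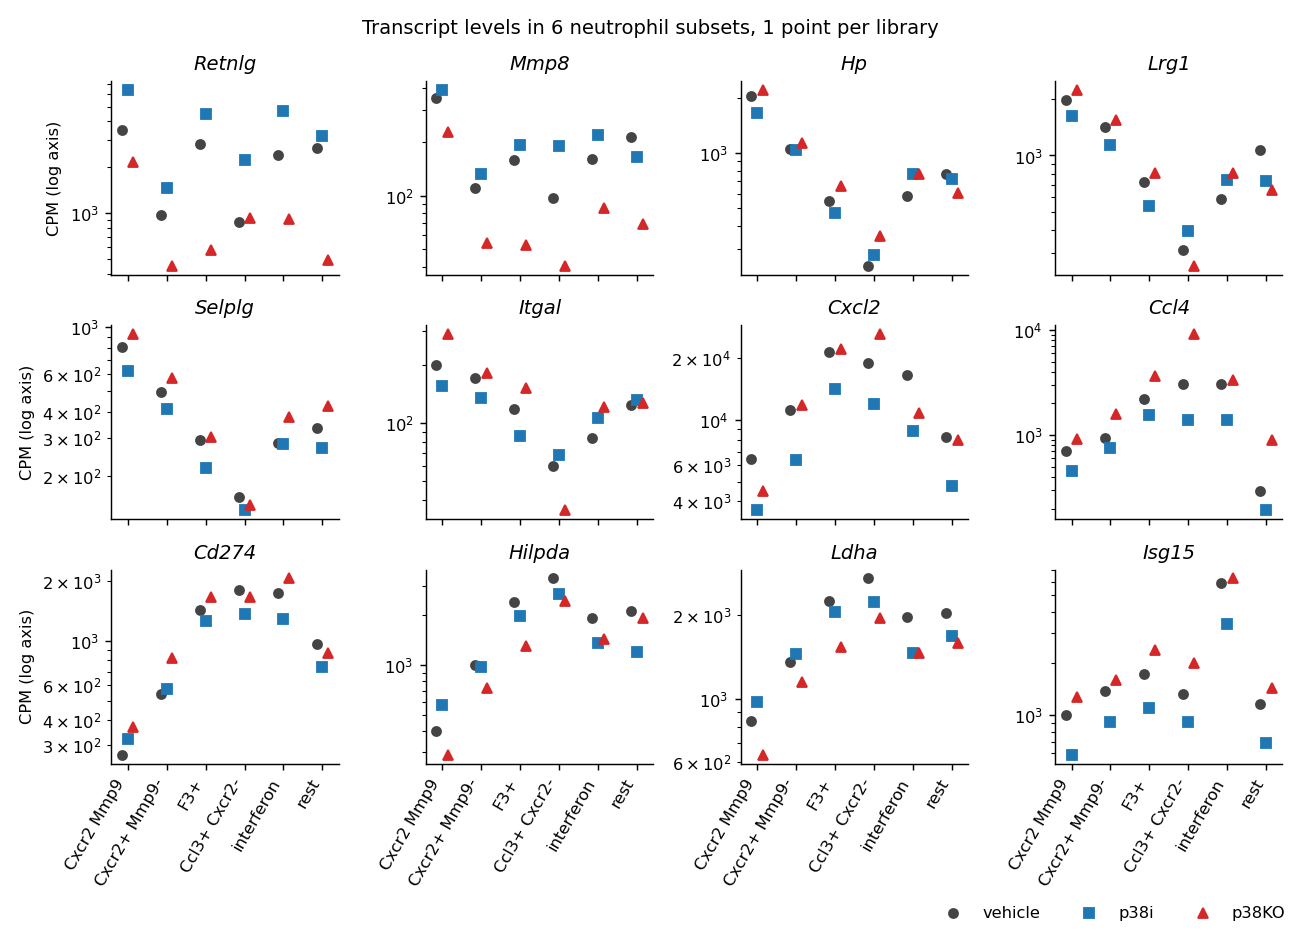
Summed CPM (log y axis) of 12 genes in 6 neutrophil subsets, with 1 point per library. Members hold the most Hp, Mmp8, Lrg1 and Selplg and the least Cxcl2, Cd274 and Hilpda of the 6 subsets in each library, while Isg15 peaks in the interferon-positive cells that the rule set apart.

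The comparisons of treatment groups rest on 1 library each. A gene is called past 1.5-fold from its CPM ratio when it had at least 50 UMIs over both libraries, and the 95% interval of each log2 ratio is the exact conditional binomial one, which covers the counting of UMIs only. Both comparisons use the same vehicle library. In p38i members, 317 of 5161 genes (6.14%) were more than 1.5-fold above vehicle and 190 (3.68%) below, with a median log2 ratio of 0.02 over all genes. In p38KO members, 503 of 4574 genes (11.0%) were above and 156 (3.41%) below, with a median of 0.15. Scaling by the median ratio in place of the total, which sets that shift to 0, gave 296 above and 205 below for p38i and 264 and 264 for p38KO. Averaging cells on a log scale gave 50 above and 146 below for p38i and 63 and 215 for p38KO. Under median-ratio scaling the excess of higher genes thus remained in p38i and was gone in p38KO. On the log scale lower genes were in excess in both groups. The p38KO ratios below are read against 0.15.

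Of the 8 named genes lower in p38i members, the most abundant was Dusp1 (chr17:26505590-26562128, minus strand), the phosphatase that switches off p38. It was at 2529.5, 672 and 1403 CPM, a log2 ratio of -1.91 (95% interval -1.99 to -1.84) for p38i and -0.85 (95% interval -0.93 to -0.78) for p38KO. In the other neutrophils Dusp1 stood at 2115, 814 and 1642 CPM, with log2 ratios of -1.38 and -0.37, so the vehicle library was highest in both kinds of cell. Tsc22d3, a glucocorticoid-induced gene also called GILZ, was at 201, 83.0 and 74.7 CPM (p38i -1.27, 95% interval -1.51 to -1.04, and p38KO -1.43, 95% interval -1.75 to -1.12). Hspa1a, an inducible heat shock gene with a near-identical copy, was at 36.2, 11.0 and 28.5 CPM (p38i -1.72), and Isoc2b at 40.7, 9.91 and 32.0 CPM (p38i -2.04, 95% interval -2.71 to -1.40). The interferon-induced genes Ifi27l2a and Oasl1 were at 569, 265 and 924 CPM and 171, 82.6 and 227 CPM, lowest in p38i and highest in p38KO. Camp and Ltf complete the 8 lower genes (log2 -1.54 and -1.44), and rest on the few granule-high cells.

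By list, p38i members held 6 of 25 interferon genes below and none above vehicle (median -0.38), 4 of 17 p38 pathway genes below and 1 above (median -0.13), and 2 of 17 immediate early genes below and none above (median -0.32). The rule kept 387, 175 and 444 interferon-positive cells out of the members. Member levels of interferon genes are therefore partly set by the rule in both comparisons with vehicle. The interferon list includes Isg15 at 1004, 586 and 1275 CPM (p38i -0.78, 95% interval -0.87 to -0.68, and p38KO 0.35, 95% interval 0.25 to 0.44). Zfp36 encodes tristetraprolin, an RNA-binding protein that the p38 pathway phosphorylates, and was at 1343, 762 and 1577 CPM (p38i -0.82, 95% interval -0.90 to -0.74). Osm, oncostatin M, was at 350.0, 182 and 446 CPM (p38i -0.94, 95% interval -1.10 to -0.78). Il1b was at 13055, 8480.0 and 15654 CPM, -0.62 (95% interval -0.65 to -0.60) for p38i and 0.26 (95% interval 0.24 to 0.29) for p38KO. Cxcl2 was at 6455, 3611 and 4503 CPM, with log2 ratios of -0.84 and -0.52. Chemokine and cytokine genes as a list gave 3 above and 4 below of 15 (median 0.08). None of 21 glycolysis and hypoxia genes, 15 cytokine receptors or 11 MHC genes passed 1.5-fold in p38i. Over all genes 6.14% were above and 3.68% below, and the counts of these lists are read against those shares.

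Among genes higher in p38i members, Car4 (carbonic anhydrase 4) was at 36.7, 135 and 20.6 CPM (p38i 1.88, 95% interval 1.53 to 2.24, and p38KO -0.83, 95% interval -1.49 to -0.20) and Saa3 (serum amyloid A3) at 367, 1329 and 71.1 CPM (p38i 1.86, 95% interval 1.75 to 1.97, and p38KO -2.37, 95% interval -2.68 to -2.07). Their order was the same, p38i highest and p38KO lowest. The 10 highest cells held 68.7%, 28.9% and 94.0% of the Saa3 UMIs and 85.5%, 61.6% and 96.6% of the Car4 UMIs, so few cells carried Car4 in every library, p38i included, and Saa3 in vehicle and p38KO. AW112010, S100a4, Cish and Camk2d were also among the genes named on this side, with log2 ratios of 1.49, 1.31, 1.21 and 1.19. The summed macrophage markers were 171 CPM in vehicle and 187 CPM in p38i members, and of 3 compared 1 was above and 1 below by 1.5-fold. The monocyte marker compared, Ly6c2, was lower (log2 -0.67, and -0.52 without the granule-high cells), as was the eosinophil marker Siglecf (log2 -0.77). The summed T cell markers were 53.0 and 63.2 CPM with overlapping counting intervals (44.0 to 63.4 and 54.1 to 73.3). Of the 2 T cell markers compared, Cd3g had a log2 ratio of 1.38 and Cd3d one of -0.08. The part of transcripts of T cells and other cell types in the p38i ratios was not tested. Retnlg, read by the rule, was at 3522, 6431 and 2176 CPM (p38i 0.87, 95% interval 0.83 to 0.91, and p38KO -0.69, 95% interval -0.76 to -0.63), and Prok2, the neutrophil prokineticin Bv8, at 704, 1247 and 263 CPM (p38i 0.83, 95% interval 0.74 to 0.91, and p38KO -1.42, 95% interval -1.59 to -1.26).

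In p38KO members, NF-kB feedback genes had the highest median ratio of the pathway lists, with 9 of 16 above and none below (median 0.64, and 6 of 16 with a median of 0.50 after median-ratio scaling). Macrophage markers were higher in p38KO than in vehicle members (494 against 171 CPM summed, and 3 of 3 compared past 1.5-fold, median 1.49), and their part in this and the other p38KO ratios given here was not tested. Tnfaip3 was at 39.3, 31.6 and 88.2 CPM (p38KO 1.17, 95% interval 0.76 to 1.57) and Sod2 at 122, 192 and 232 CPM (p38KO 0.92, 95% interval 0.69 to 1.16, and p38i 0.65, 95% interval 0.43 to 0.86). Icam1, the endothelial and leukocyte adhesion ligand, was at 43.3, 42.6 and 104 CPM (p38KO 1.26, 95% interval 0.88 to 1.65, and p38i -0.02, 95% interval -0.42 to 0.38). For Icam1 and Tnfaip3 p38KO was highest and the other two libraries lay close together. Survival genes gave 5 of 19 above and 1 below (3 and 1 after median-ratio scaling), among them the A1 genes Bcl2a1a and Bcl2a1b (1.36 and 1.17), near-identical copies whose reads cannot be cleanly split. Cytokine receptors gave 4 of 15 above (1 after median-ratio scaling), and interferon genes 5 of 25 above and none below (3 after it). Over all genes 11.0% were above and 3.41% below, and 5.77% lay on each side after median-ratio scaling. The scaled cytokine receptor count is near that share. Tlr2, the lipopeptide receptor, was at 105, 105 and 201 CPM (p38KO 0.94, 95% interval 0.69 to 1.20).

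Among genes with at least 100 UMIs over both libraries, the 8 furthest above vehicle in p38KO members were Amer2, Tgfbr1, Apoe, H2-Q7, Clec5a, Cxcl10, Scimp and Fcgr2b. Tgfbr1, a TGF-β receptor, was at 16.8, 19.1 and 52.6 CPM, Clec5a, an activating lectin receptor, at 47.3, 77.8 and 133 CPM (p38KO 1.49, 95% interval 1.14 to 1.85) and Fcgr2b, the inhibitory Fc receptor, at 29.2, 61.3 and 75.4 CPM (p38KO 1.37, 95% interval 0.91 to 1.84, and p38i 1.07, 95% interval 0.65 to 1.51). Amer2, H2-Q7, Scimp and Cxcl10 had log2 ratios of 1.72, 1.54, 1.42 and 1.44. Apoe, an apolipoprotein abundant in macrophages, was at 98.5, 124 and 305 CPM (p38KO 1.63, 95% interval 1.39 to 1.87). It is the most abundant of the macrophage markers given above, whose sums in the other neutrophils stood at 260 CPM in vehicle and 490 CPM in p38KO.

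Below vehicle in p38KO members were genes of the secondary granule, S100 and MHC lists. S100 and alarmin genes gave 4 of 11 below and none above (median -0.40). Secondary granule genes gave 7 of 12 below and none above (median -0.65), a count that rested on the granule-high cells, as given below. None of 10 tertiary and secretory granule genes passed 1.5-fold (median 0.04). Over all genes 11.0% were above and 3.41% below, so that 0 does not set the list apart from other genes. It lay apart from the secondary granule count only while the granule-high cells were included. MHC genes gave 4 of 11 below and none above (median -0.17), and the same count without the granule-high cells. The 4 were the class II genes H2-Aa, H2-Ab1, H2-Eb1 and Cd74, which serve antigen presentation to CD4 T cells, with log2 ratios of -0.97, -0.84, -0.97 and -0.65. Ifitm6 was at 1183, 1139 and 346 CPM (p38KO -1.77, 95% interval -1.92 to -1.63, and p38i -0.06, 95% interval -0.13 to 0.02), Stfa3, one of the near-identical stefin A genes, at 236, 292 and 69.0 CPM (p38KO -1.77, 95% interval -2.10 to -1.46), and Ly6g, the classic surface marker of mouse neutrophils, at 172, 143 and 59.8 CPM (p38KO -1.52, 95% interval -1.88 to -1.18). In all of them p38KO was lowest, and Ifitm6 and Stfa3 were close to vehicle or above it in p38i. Without the granule-high cells the secondary granule list gave 9 genes to compare, 1 of them above and none below vehicle (median -0.13). Ifitm6 and Ly6g, outside that list, stood at -1.15 and -0.79 without these cells. The remaining named genes were Camp, Ltf and Ngp (-6.86, -4.97 and -3.38), Saa3, given above, and Adpgk at 44.2, 38.9 and 10.7 CPM.

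Of 3026 genes with at least 100 UMIs in both comparisons, 14 were past 1.5-fold above vehicle in both, 6 were below it in both, and 21 lay on opposite sides. Taken by the smaller of the ratios, the first 8 of the 14 were Fcgr2b, Clec5a, Ffar2, Spen, Tfe3, Ski, Sod2 and Srp72, and the 6 lower genes were Camp, Ltf, Tsc22d3, Dusp1, Ngp and Tor2a. Ffar2, a receptor of short-chain fatty acids, was at 22.1, 36.3 and 39.8 CPM, 0.72 for p38i and 0.85 for p38KO in log2. Tfe3, a transcription factor of lysosomal genes, was at 26.5, 42.6 and 44.1 CPM, 0.68 and 0.73, and Spen, Ski, Srp72 and Tor2a had ratios of 0.71 and 0.87, 0.68 and 1.06, 0.66 and 0.63, and -0.74 and -0.64. After median-ratio scaling the p38KO ratio of Srp72 falls under 1.5-fold. Ngp, a secondary granule gene, turned direction when the granule-high cells were left out, with a p38i log2 ratio of -0.68 over all members and 1.48 without those cells, and its p38KO ratio moved from -3.38 to -0.02. Both comparisons use the same vehicle cells, so the ratios of a gene are not independent.

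**Figure D5:**
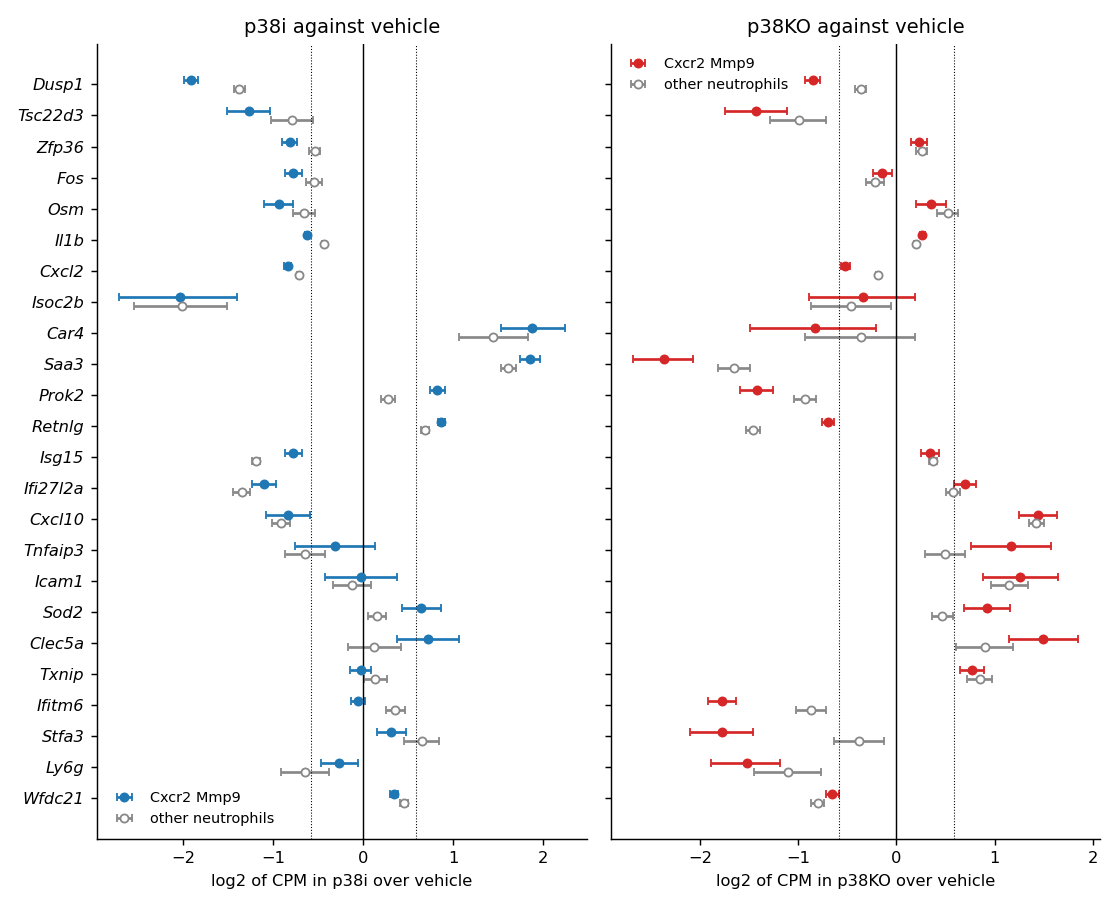
Log2 ratio to vehicle (x axis) of 24 genes in p38i and p38KO, in members (filled points) and in all other neutrophils (open points); bars are exact 95% intervals for the counting of UMIs in 1 library per group, and dotted lines mark 1.5-fold. Dusp1 and Tsc22d3 lie left of 0 in both groups, and Saa3 and Car4 lie right of 0 in p38i and left of 0 in p38KO.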

How the data were processed

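Live CD45+ cells from 4T1 tumors were profiled by 10x Genomics 3′ single-cell RNA-seq, with 1 library per group. The authors deposited whole-number UMI counts for 32285 genes per barcode, made with Cell Ranger 6.0.0 per the file headers and the mm10 build per the labels, already restricted to 4588, 6343 and 5212 barcodes. Libraries held 21675352, 25996832 and 25997636 UMIs. No doublet caller was run on the 12472 cells kept, and leaving out the deepest 5% of neutrophils was an alternative instead. The chemistry version differs between sources and is not given here.

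The members, their rule, the gene lists and the named-gene rule were chosen with earlier results of these data known. Cells were selected by the rule in the report, counts were summed per library and subset, and edgeR 4.0.16 (quasi-likelihood, TMM, library as block, Benjamini-Hochberg) compared members with other subsets in R 4.3.3. The 22 genes of the rule, and Ccl3 in the Ccl3 and F3 contrasts, were not tested. The same libraries serve every subset, and p-values measure the spread between 3 libraries that differ in treatment. Groups were compared by CPM ratios with exact conditional binomial 95% intervals and exact Poisson intervals on levels, without a test, since each had 1 library. All intervals and limits for a count of 0 cover counting error only. Barcode sequences shared between libraries numbered 6, 5 and 9, with 0 among the members.

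Genes were named by rule: the 10 largest called differences per direction with the same direction in 3 libraries and at least 100 CPM in the higher subset of every library; per condition, the 8 largest ratios per direction with at least 100 UMIs over both libraries, and up to 8 per direction past 1.5-fold in both; and 2 to 4 per list. Genes with mt-, Rpl, Rps, Gm or Rik names were not eligible, and a few genes that the rule or the lists name are not reported here. On simulated counts for 7389 genes of the comparison with all other neutrophils, the fit recovered 83.8% of genes changed by a log2 of 1 and 100% of those changed by a log2 of 2, and 4 of its 187 calls were false. Alternatives were DESeq2 1.42.0, other scalings, count minimums, cell filters, depth and leaving out each library. Python 3.11.15 with numpy 2.4.6, scipy 1.17.1, pandas 2.3.3 and matplotlib 3.10.9 did the rest. Gene positions are from GENCODE and promoters from RefSeq, both on GRCm38.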

Additional observations from a re-analysis of the deposited data

Results flagged for a closer look

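In 21 of 3026 genes with at least 100 UMIs in both comparisons, the members of the p38i and p38KO libraries lay on opposite sides of vehicle by more than 1.5-fold. The 10 given here are those held by the gene lists or the naming rule. The groups hold 1 library each, so the difference between the 2 effects was not tested in any of them, and values are log2 ratios to the shared vehicle library, p38i first and p38KO second. Saa3 was at 1.86 and -2.37, Car4 at 1.88 and -0.83, Prok2 at 0.83 and -1.42, and Cd177 at 0.94 and -0.85. These 4 genes were highest in p38i and lowest in p38KO. Cxcl10 was at -0.84 and 1.44, Ifi27l2a at -1.10 and 0.70, and Slfn5 at -0.69 and 0.82. These interferon-induced genes, in members that exclude interferon-positive cells by rule, were lowest in p38i and highest in p38KO. Cxcr4 was at -0.91 and 0.66, Nfkbid, an IkB-type regulator, at -0.65 and 0.72, and Pmaip1, the pro-apoptotic NOXA, at -0.67 and 0.72, in the same order. Median-ratio scaling lowers every p38KO ratio by 0.15. The p38KO ratios of Cxcr4, Nfkbid, Pmaip1 and Ifi27l2a then fall under 1.5-fold. Among the barcodes removed by the cell filter, 57 of 768 in vehicle, 194 of 1550 in p38i and 137 of 1353 in p38KO also met the rule for the population and were left out of the values above.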

How the results depend on the processing

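The share of members in neutrophils (35.8%, 36.0% and 34.2% in vehicle, p38i and p38KO) depended on how it was defined. It was 28.7%, 27.9% and 29.6% at 1500 UMIs per cell, 33.4%, 32.2% and 31.3% with no cell filter, 21.3%, 19.5% and 19.7% with 2 UMIs of both genes, and 19.0%, 18.4% and 14.7% of all cells kept. Which library had the highest share changed with the definition.

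Against all other neutrophils (1179 genes higher and 1351 lower), DESeq2 called 543 and 798, a fit with no library term called 658 and 765, and members chosen at 1500 UMIs per cell gave 729 higher. Leaving out 1 library at a time gave 680 to 1208 higher and 772 to 1413 lower, lowest without vehicle. Against the Ccl3-positive cells the same gave 657 to 921 higher and 659 to 943 lower (659 without vehicle), and against the F3-positive cells 520 to 672 higher (520 without vehicle, 522 without p38i) and 657 to 806 lower. Fits without 1 library rest on the other two. Cxcl10 was no longer called with no library term (-1.98, adjusted p 0.063). No paired analysis was possible between groups because each holds 1 library, and the library was the block between subsets.

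For p38i against vehicle, the 317 higher genes became 50 when cells were averaged on a log scale, 765 and 42 with at least 20 and 200 UMIs, 581 in all neutrophils and 65 past 2-fold. The 190 lower genes became 146 on the mean log scale, 427 and 60 with at least 20 and 200 UMIs and 23 past 2-fold. For p38KO, the 503 higher genes became 264 by median-ratio scaling, 63 on the mean log scale, 228 at 1500 UMIs per cell, 982 and 131 with at least 20 and 200 UMIs and 103 past 2-fold. The 156 lower genes became 264 by median-ratio scaling, 215 on the mean log scale, 388 and 45 with at least 20 and 200 UMIs and 38 past 2-fold. These counts therefore move with the count minimum and the fold, and the cause of the other changes was not tested.

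Among the values for named genes under these alternatives, 791 kept their direction and call, 111 moved, 1 lost its call and 9 reversed. In p38i the mean log scale turned Camp to 0.067, Ltf to 0.0023 and Ngp to 0.23. Ngp was 0.089 with no transcript of the 6 excluded genes allowed, 0.41 in all neutrophils and 1.48 without the granule-high cells, an alternative chosen after seeing the data. In all neutrophils Camp was 0.35 and H2-Q7 -0.13, and H2-Q7 was -0.085 at 1500 UMIs per cell. Without the granule-high cells 338 genes were higher and 179 lower in p38i, and 452 and 148 in p38KO. At a median depth of 2182 to 2599 UMIs per member, genes with few UMIs have wide intervals, and no interval covers variation between mice.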
